A study of Mus musculus with 18 samples.

Results

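The genes described here are 37 genes of the lysosome, followed across neutrophils sorted from mouse lung. They were listed by gene symbol and comprise 7 cathepsins (Ctsa, Ctsb, Ctsd, Ctsh, Ctsl, Ctss and Ctsz), 14 other soluble hydrolases and cofactors (Gla, Glb1, Hexa, Gusb, Manba, Man2b1, Lipa, Asah1, Neu1, Tpp1, Ppt1, Npc2, Psap and Grn), 6 membrane and cargo proteins (Lamp1, Lamp2, Cd63, Cd68, Npc1 and Mcoln1), 8 subunits of the proton pump (Atp6v0a1, Atp6v0b, Atp6v0c, Atp6v0d1, Atp6v1a, Atp6v1b2, Atp6v1d and Atp6v1h) and 2 transcription factors (Tfeb and Tfe3). All 37 were found among the 40481 gene IDs of the count table, and all 37 were among the 16575 genes with enough reads to be tested.

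RNA was sequenced from live CD45+ CD11b+ Ly6G+ cells of digested C57BL/6 lungs, split by CD101, which neutrophils gain as they mature. CGD mice, a model of chronic granulomatous disease, are labelled as knockouts of Cybb, the gene for the core of the oxidase with which phagocytes make superoxide. Wild-type (WT) and CGD mice each gave 3 groups of 3 libraries: CD101pos cells without treatment (naive), and CD101pos and CD101neg cells after zymosan. Zymosan is a yeast cell wall preparation, and lungs were taken 24 hours after an intranasal dose of 20 µg. The naive mice were 12-week-old males and the treated mice 13-week-old females, so treatment, sex and age cannot be told apart in any comparison of zymosan with naive cells. No naive CD101neg group was analysed here. Nothing in the labels says that the 3 libraries of a group are separate animals, so p-values measure the spread between these libraries, which may be technical. In sorted bulk RNA, fewer cells of a type and less RNA per cell cannot be told apart.

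Lysosomes digest what a cell takes up or discards. A proton pump, the V-ATPase, acidifies their lumen with a membrane sector (V0) that carries protons and a cytosolic sector (V1) that hydrolyses ATP, and the acid activates proteases such as the cathepsins and enzymes that cleave sugars and lipids. Membrane proteins such as LAMP1 and LAMP2 line the organelle, NPC1 and NPC2 pass cholesterol out of it, and MCOLN1 releases calcium from it. TFEB and TFE3 are related transcription factors that bind the palindromic E-box CACGTG in many lysosomal promoters. In neutrophils, the azurophil granules share enzymes and CD63 with lysosomes, and phagosomes that hold yeast particles fuse with both.

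The motif is shown first, because the genes that differ between the groups include genes with and without it. Promoter windows, from 250 bases before to 50 after each annotated start (RefSeq, GRCm38.p6), were matched for 31 of the 37 genes by symbol. The 6 genes with no window are Ctsb, Ctsh, Asah1, Npc1, Atp6v1b2 and Atp6v1h. The extended motif GTCACGTG, read on both strands (CACGTGAC on the other), was in the windows of 8 of the 31 genes (25.8%), against 12 of 64 other lysosome genes with a window (18.8%) and 689 of 27025 symbols in the table (2.55%). Those 8 genes are Ctsa, Ctsd, Gla, Glb1, Lamp1, Mcoln1, Atp6v0b and Atp6v0d1. The core CACGTG, which the longer motif contains and which is its own reverse complement, was in 10 of the 31 (32.3%), in 31.2% of the 64 other lysosome genes and in 8.09% of all symbols. The intermediate form TCACGTG, also contained in the longer one, was in 9 of the 31 (29.0%), in 29.7% of the other lysosome genes and in 4.29% of all symbols. The share over all symbols includes genes that were not tested here, and a gene with several windows counted when any of them matched. A match describes letters in a window and does not show that a factor binds there. The windows below are written 5′ to 3′ on the strand of the gene with the motif in capitals. The first 4 lines are 30-base windows of genes that differed between groups, and the 2 longer lines are the 250 bases upstream of Lamp1, with 4 copies of CACGTG, and of Neu1, with none.
Ctsa, chr2:164833748-164833777, plus strand: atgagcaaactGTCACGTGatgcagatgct
Ctsd, chr7:142387907-142387936, minus strand: cgcccgcgtctCACGTGACccgttgagggc
Gla, chrX:134601183-134601212, minus strand: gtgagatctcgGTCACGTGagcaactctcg
Glb1, chr9:114401017-114401046, plus strand: gctgcttctgaGTCACGTGgcctacagagg
Lamp1, chr8:13158911-13159160, plus strand: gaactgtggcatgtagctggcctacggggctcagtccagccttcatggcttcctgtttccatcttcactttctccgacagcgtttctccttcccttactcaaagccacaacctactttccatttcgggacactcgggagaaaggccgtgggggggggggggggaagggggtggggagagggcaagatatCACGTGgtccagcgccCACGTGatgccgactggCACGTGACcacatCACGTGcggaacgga
Neu1, chr17:34931003-34931252, plus strand: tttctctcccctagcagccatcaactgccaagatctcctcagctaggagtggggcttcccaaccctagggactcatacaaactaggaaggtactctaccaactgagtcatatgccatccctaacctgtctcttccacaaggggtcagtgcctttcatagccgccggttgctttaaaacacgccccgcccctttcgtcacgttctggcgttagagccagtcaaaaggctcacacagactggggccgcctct

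Libraries held 33.7 to 67.9 M counts in genes, and levels are given as CPM, counts per M of the scaled library size. Cybb lay at 126 to 283 CPM in the WT libraries and at 29.6 to 59.5 CPM in the CGD libraries, with no overlap. Cd101 was higher in CD101pos than in CD101neg libraries of each genotype without overlap, but the CGD CD101pos libraries after zymosan (95.9 to 112 CPM) lay below the WT CD101neg libraries (156 to 185 CPM). Summed over 11 neutrophil markers, levels ran from 19577 to 119511 CPM, against 126 to 835 CPM for 13 alveolar macrophage markers 852 to 1358 CPM for 13 markers of monocytes and interstitial macrophages, and 315 to 1886 CPM for 5 epithelial markers.

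Levels differed widely between the 37 genes. Per kilobase of exon, Ctsd, which encodes the aspartic protease cathepsin D, averaged 1166 CPM per kb over the 18 libraries. Psap, the precursor of the saposins that help enzymes reach lipids, averaged 529.5, and the cysteine protease genes Ctsb and Ctsz averaged 368 and 319 CPM per kb. Among pump subunits Atp6v0c, the proton-carrying ring of the V0 sector, was highest at 219 CPM per kb. At the other end stood the calcium channel gene Mcoln1 at 1.07, Glb1 (β-galactosidase) at 1.52 and Manba (β-mannosidase) at 1.86 CPM per kb. The mean of a gene over its 3 libraries was lowest in WT naive cells for 18 of the 37 genes and highest in WT zymosan CD101neg cells for 14. In CGD zymosan CD101neg cells it was lowest for 10 and highest for 9. The same counts were not made over all tested genes, so they do not set the 37 genes apart. Between the lowest and the highest group mean, Cd63 differed 5.57-fold, Npc1 5.33-fold and Ctsb 5.08-fold, while Atp6v0d1 differed 1.21-fold and Gusb 1.29-fold. Libraries of a group also stood apart together. WT zymosan CD101neg replicate 2 was the lowest of its 3 libraries for 22 of the 37 genes (40.1% of all tested genes), and WT zymosan CD101neg replicate 3 was the highest for 23 (31.3%) and the lowest for 1. CGD naive replicate 2 was the highest of its group for 24 (33.5%), CGD zymosan CD101pos replicate 1 the highest for 24 (36.6%), WT naive replicate 3 the lowest for 25 (37.8%) and CGD zymosan CD101neg replicate 1 the lowest for 21 (39.5%).

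**Figure D1:**
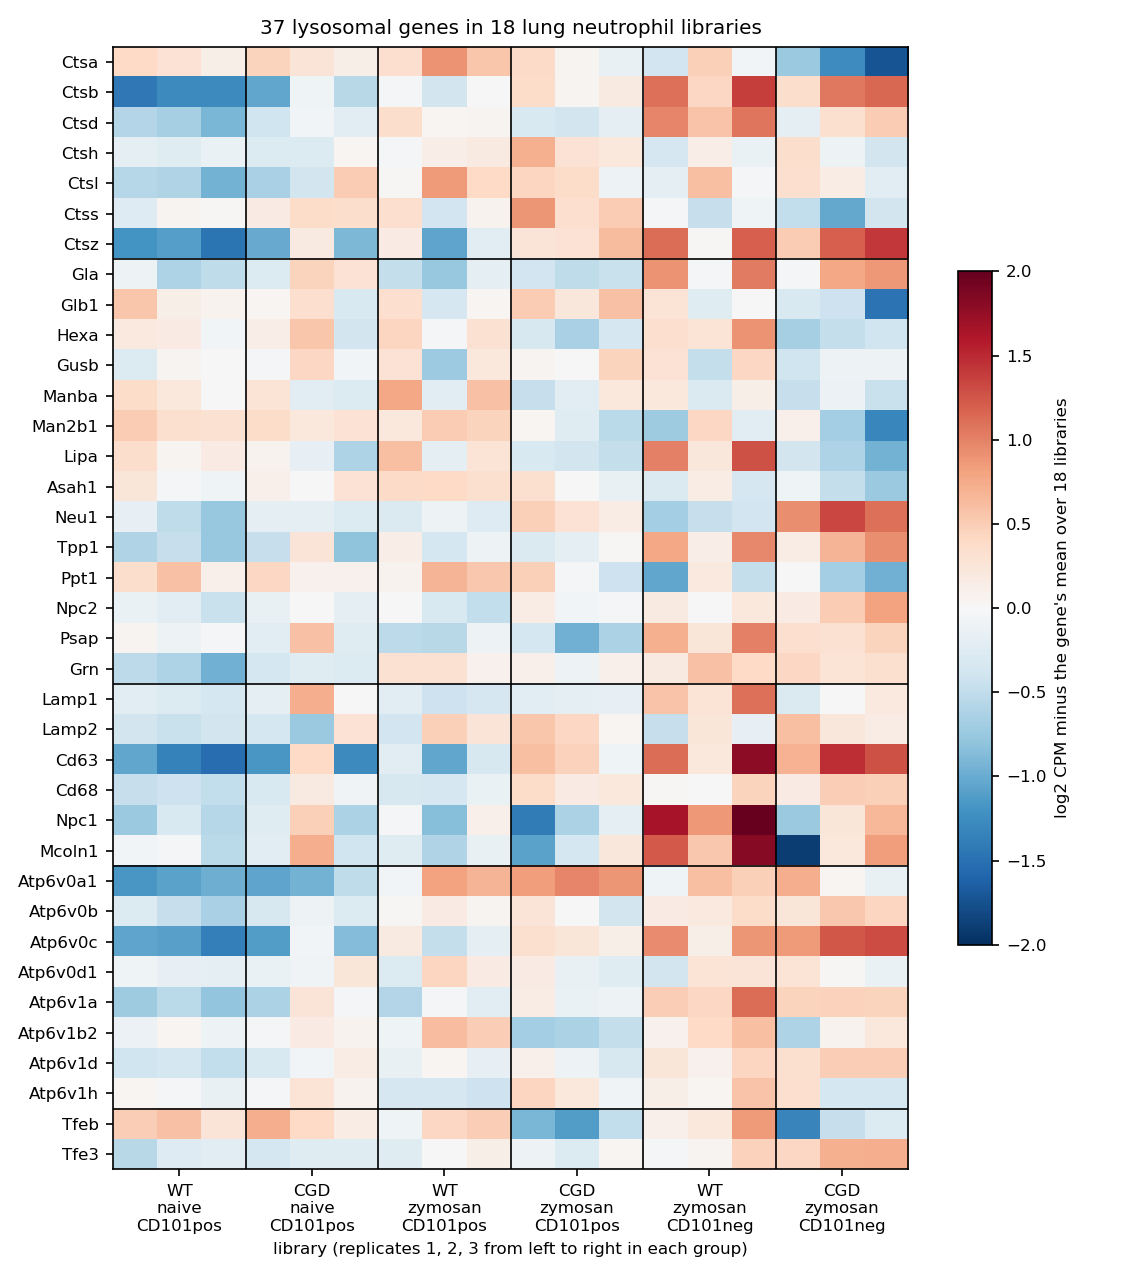
Level of each of the 37 genes (rows, in role order) in each of the 18 libraries (columns), as log2 CPM minus the mean of the gene over all libraries. Red is above and blue below that mean, and colours stop at 2 in either direction. Ctsb, Cd63 and Atp6v0c are blue in WT naive libraries and red in CD101neg libraries of both genotypes, and Neu1 is red in CGD zymosan CD101neg libraries.

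The first comparison set CGD against WT CD101neg cells after zymosan. Of the 37 genes 8 passed the test, 7 lower and 1 higher in CGD than in WT cells, and 29 did not pass. Lipa, Hexa, Ctsa, Ctsd, Npc1, Lamp1 and Tfeb were lower, and the sialidase gene Neu1 was 3.11-fold higher. Of the 14 other soluble hydrolases and cofactors 2 were lower, 1 was higher and 11 did not pass. Over all tested genes, 12.9% passed in this comparison (6.67% higher and 6.24% lower), against 21.6% of the 37. The median log2 difference was -0.138 over the 37 genes and -0.084 over all genes.

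Neu1, which removes sialic acid from glycoproteins and is held active by the product of Ctsa, gave 188, 249.7 and 212 CPM in the CGD libraries. In WT it gave 61.4, 71.5 and 76 CPM. Each CGD library was above 2 times the highest WT library, and the log2 difference was 1.64 ± 0.18 (SE, n = 3 per group, edgeR quasi-likelihood test, adjusted p = 1.66e-05). Lipa, the acid lipase that cleaves cholesteryl esters, moved the other way, with 123, 103 and 82.4 CPM in CGD and 319, 186 and 382 CPM in WT libraries. Its groups did not overlap, and it fell by 1.52 ± 0.26 on the log2 scale (adjusted p = 0.00094). Hexa, the α subunit of the ganglioside-cleaving β-hexosaminidase, gave 78.3, 89.6 and 94.7 CPM in CGD against 157, 150.4 and 232 CPM in WT libraries, again with no overlap (log2 -1.04 ± 0.23, adjusted p = 0.00548).

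Of the 7 cathepsins 2 fell and 5 did not pass. Ctsa, the carboxypeptidase that protects Neu1 and β-galactosidase, gave 255, 177 and 128 CPM in CGD and 325, 594 and 411 CPM in WT libraries (log2 -1.25 ± 0.26, adjusted p = 0.00407). The partners Ctsa and Neu1 thus differed in opposite directions between the same libraries. Ctsd gave 2227, 3180.3 and 3638 CPM against 5035, 3814 and 5344 CPM, a smaller difference with a narrow gap between the groups (log2 -0.65 ± 0.21, adjusted p = 0.0457). In the GENCODE M21 annotation 34.4% of the exon bases of Ctsd also belong to Gm49369 on the same strand, a gene that the count table does not hold. Of the exon bases of Ctsa, 10.5% lie opposite exons of Pltp, which the count table does hold, so reads could be shared. The same holds for 12.8% of the exon bases of Hexa (opposite Tmem202), 9.31% of those of Lamp1 (opposite Grtp1) and 4.52% of those of Npc1 (opposite Rmc1).

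Among membrane and cargo genes 2 of 6 fell, with 4 that did not pass. Npc1 gave 15.5, 30.6 and 40.8 CPM in CGD and 81.2, 47.2 and 132 CPM in WT libraries, without overlap (log2 -1.58 ± 0.41, adjusted p = 0.0171). Lamp1, a main glycoprotein of the lysosomal membrane whose upstream window is printed above, gave 41, 49.9 and 57.1 against 74.1, 60.3 and 107 CPM (log2 -0.70 ± 0.23, adjusted p = 0.0487). Mcoln1 had a difference of -1.18 on the log2 scale and did not pass. Tfeb fell, from 63.2, 67.9 and 106 CPM in WT to 23.5, 42.7 and 48.9 CPM in CGD libraries (log2 -1.04 ± 0.27, adjusted p = 0.0165), and its groups did not overlap. Its relative Tfe3 gave 58.2, 71.2 and 71.9 CPM in CGD and 42.7, 45.3 and 59.9 CPM in WT libraries, which overlapped (log2 0.44 ± 0.17, adjusted p = 0.0989). None of the 8 pump subunits passed in this comparison by edgeR's quasi-likelihood test, and Atp6v0c, with 1144, 1503 and 1563 CPM in CGD and 1225, 687 and 1173 CPM in WT, had overlapping groups (log2 0.45 ± 0.27, adjusted p = 0.292).

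The calls of Neu1, Lipa and Hexa held under every alternative run, and that of Ctsa under all but the fit of the 2 groups alone (log2 -1.22), in which 3 of the 37 passed. Without WT CD101neg replicate 3 the count was 4 and the calls of Tfeb, Npc1, Ctsd and Lamp1 were lost, and without CGD CD101neg replicate 2 it was 5. The call of Lamp1 was lost without each CGD library and without WT replicates 1 and 3, that of Ctsd without CGD replicates 1 and 2 and WT replicates 1 and 3, that of Npc1 without CGD replicates 1 and 2, and that of Tfeb without CGD replicate 1. With scaling by library size alone, which moved the median over all genes to -0.568, 20 of the 37 passed, 1 of them higher, against 24.0% of all tested genes (2.49% higher). Markers of other cells moved in the same comparison. Of the 13 alveolar macrophage markers 8 fell, though their summed level overlapped (239.7 to 324 CPM in CGD, 231 to 438 CPM in WT), and of the 13 monocyte and interstitial macrophage markers 9 fell (852 to 1051 CPM against 1159.9 to 1313 CPM). All 6 B cell markers fell (26.4 to 43.1 CPM against 116 to 145 CPM). The 5 epithelial markers summed to 315 to 578 CPM in CGD and 480.3 to 1055 CPM in WT libraries, and none of them passed. No marker of these 4 lists was at 0 in a whole group. Of the 11 neutrophil markers 1 was called higher in CGD and 9 had a fitted difference above 0. Their summed level overlapped (54264 to 119511 CPM in CGD, 19577 to 82822 CPM in WT). The part of these markers in the differences above was not tested.

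Outside the 37, 13 of 80 other tested lysosome genes passed in CD101neg cells, 6 higher and 7 lower in CGD. The list of 30 other hydrolases had 2 higher and 4 lower. Scpep1, a carboxypeptidase, was lower (4.87 against 14.9 CPM, log2 -1.61 ± 0.26), as was Lgmn, the asparaginyl endopeptidase that processes cathepsins (27.1 against 75.2 CPM, log2 -1.47 ± 0.32). Ctsc, the protease that activates neutrophil serine proteases, was higher (317 against 164 CPM, log2 0.95 ± 0.19). Among 20 other membrane proteins 1 rose and 2 fell. The phagosomal metal transporter gene Slc11a1 was the one that rose, with 1809 against 760.1 CPM (log2 1.25 ± 0.17). Both pump genes that passed among the 10 tested outside the 37 were higher in CGD, Atp6v1e1 (853 against 409 CPM, log2 1.06 ± 0.18) and the accessory subunit Atp6ap2 (517 against 223 CPM, log2 1.21 ± 0.26). Of 20 sorting and control genes the mannose 6-phosphate receptor gene M6pr rose (343 against 121 CPM, log2 1.5 ± 0.3) and Nagpa, which completes the mannose 6-phosphate tag, fell (2.07 against 5.23 CPM, log2 -1.33 ± 0.29).

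**Figure D2:**
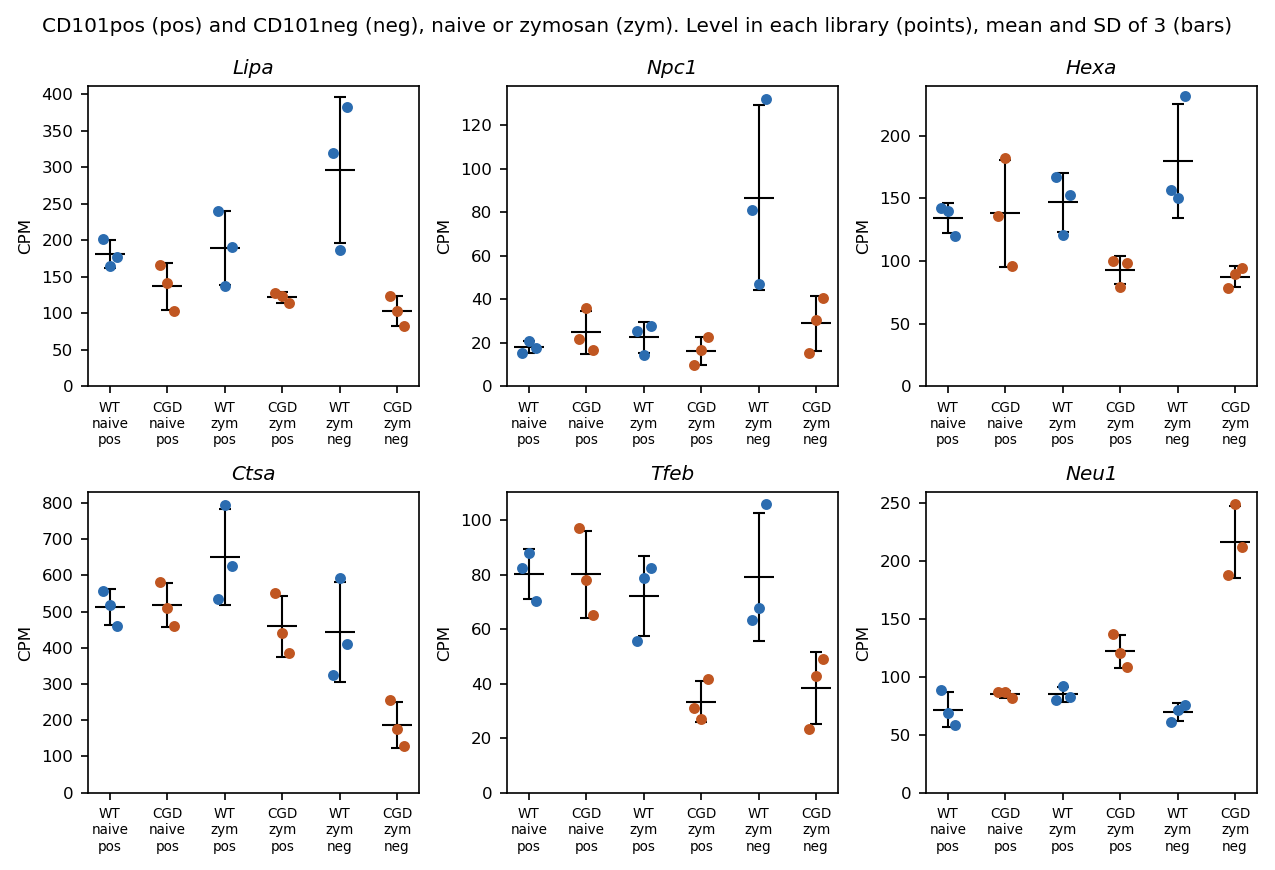
CPM of Lipa, Npc1, Hexa, Ctsa, Tfeb and Neu1 in each library of the 6 groups (points, WT blue and CGD orange), with the mean and SD of 3 libraries (black bars) and axes that start at 0. Neu1 lies at 188 to 249.7 CPM in CGD zymosan CD101neg libraries and at or below 137 CPM in every other library, and Tfeb is at or below 48.9 CPM in the CGD zymosan libraries of both subsets.

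CD101pos cells after zymosan were compared between the genotypes in the same way. Here 2 of the 37 genes passed, both lower in CGD, against 5.30% of all tested genes (2.53% lower), a share of 5.41%. Tfeb gave 31.1, 27.2 and 41.7 CPM in CGD and 55.5, 78.7 and 82.5 CPM in WT libraries. The groups did not overlap, and the log2 difference of -1.12 ± 0.27 (adjusted p = 0.0197) was close to that of CD101neg cells. Atp6v1b2, the B subunit of the ATP-hydrolysing sector, gave 101, 104 and 116 CPM in CGD against 153, 249 and 228 CPM in WT (log2 -0.97 ± 0.22, adjusted p = 0.0136). Both calls were lost without CGD CD101pos replicate 2, WT replicate 3 or WT replicate 2, when 0 genes passed, and the call of Tfeb was lost without CGD replicate 1, when 1 passed.

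The other 35 genes ran from -0.67 to 0.85 on the log2 scale, with a median over all 37 of -0.0028. Tfe3 (40.7, 36.2 and 44.9 CPM in CGD, 36.9, 43.9 and 47.6 CPM in WT) overlapped between genotypes (log2 -0.077 ± 0.17). Atp6v0c (795, 753 and 686 CPM in CGD, 718, 458 and 558 CPM in WT) also overlapped (log2 0.37 ± 0.27). Among the 80 other lysosome genes 6 passed, 4 of them higher. Ctsk, a cysteine protease of osteoclasts and macrophages, was higher in CGD (98.7 against 17.0 CPM, log2 2.54 ± 0.51), and the sulfamidase gene Sgsh was lower (3.62 against 7.66 CPM, log2 -1.08 ± 0.28). Slc11a1 was higher here too (1207 against 719.6 CPM, log2 0.75 ± 0.16), and the endolysosomal channel gene Tpcn1 was lower (3.33 against 7.7 CPM, log2 -1.21 ± 0.33). Of the sorting and control genes, Rptor, a subunit of the nutrient-sensing kinase complex mTORC1, rose from 9.7 to 37.1 CPM (log2 1.94 ± 0.38), and Tfec, a relative of Tfeb, rose from 1.72 to 8.45 CPM (log2 2.29 ± 0.47). In these libraries 5 of 13 alveolar macrophage markers were higher in CGD (summed level 434 to 835 CPM against 213 to 469 CPM), the opposite direction to CD101neg cells, and their part in the result was not tested. Of the monocyte and interstitial macrophage markers 5 of 13 were higher and 1 lower, and 5 of 6 B cell markers were lower.

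Without zymosan, none of the 37 genes passed between CGD and WT CD101pos cells by edgeR's quasi-likelihood test, and 0.127% of all tested genes did. At an unadjusted p under 0.05 there were 10 of the 37, against 6.92% of all tested genes, and DESeq2 also called 0 of the 37. The lowest p was that of Ctsb, with 919.9, 1789 and 1296 CPM in CGD and 700.4, 785 and 787 CPM in WT libraries, which did not overlap (log2 0.82 ± 0.27, adjusted p = 0.45). Next was Atp6v1a, the catalytic subunit of the pump, with 142, 263 and 217 CPM against 134, 151 and 127 CPM, which overlapped (log2 0.59 ± 0.23, adjusted p = 0.608). CGD replicate 2 was the highest library for both genes. Tfeb (97, 77.9 and 65.3 CPM in CGD, 82.5, 88 and 70.3 CPM in WT) and Tfe3 (34.2, 37 and 37 CPM in CGD, 29.8, 36.4 and 37.3 CPM in WT) overlapped fully. Atp6v0c gave 293, 612 and 347 CPM in CGD and 306, 298 and 247 CPM in WT, an overlap that left a log2 difference of 0.56 ± 0.27 (adjusted p = 0.735). The fitted difference was above 0 for 31 of the 37 genes, with a median of 0.219 against -0.0005 over all genes. Of 80 other lysosome genes 3 rose, namely Ctsk (19.7 against 1.3 CPM, log2 3.94 ± 0.56), the pump subunit Atp6v0d2 (25.3 against 2.3 CPM, log2 3.47 ± 0.65) and Tfec, which was at 0 in all WT naive libraries and averaged 0.408 CPM in CGD. Of the 13 alveolar macrophage markers 1, Marco, was higher in CGD (1.81 against 0.157 CPM), and the summed level of that list was 126 to 184 CPM in CGD and 127 to 134 CPM in WT; its part was not tested.

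**Figure D3:**
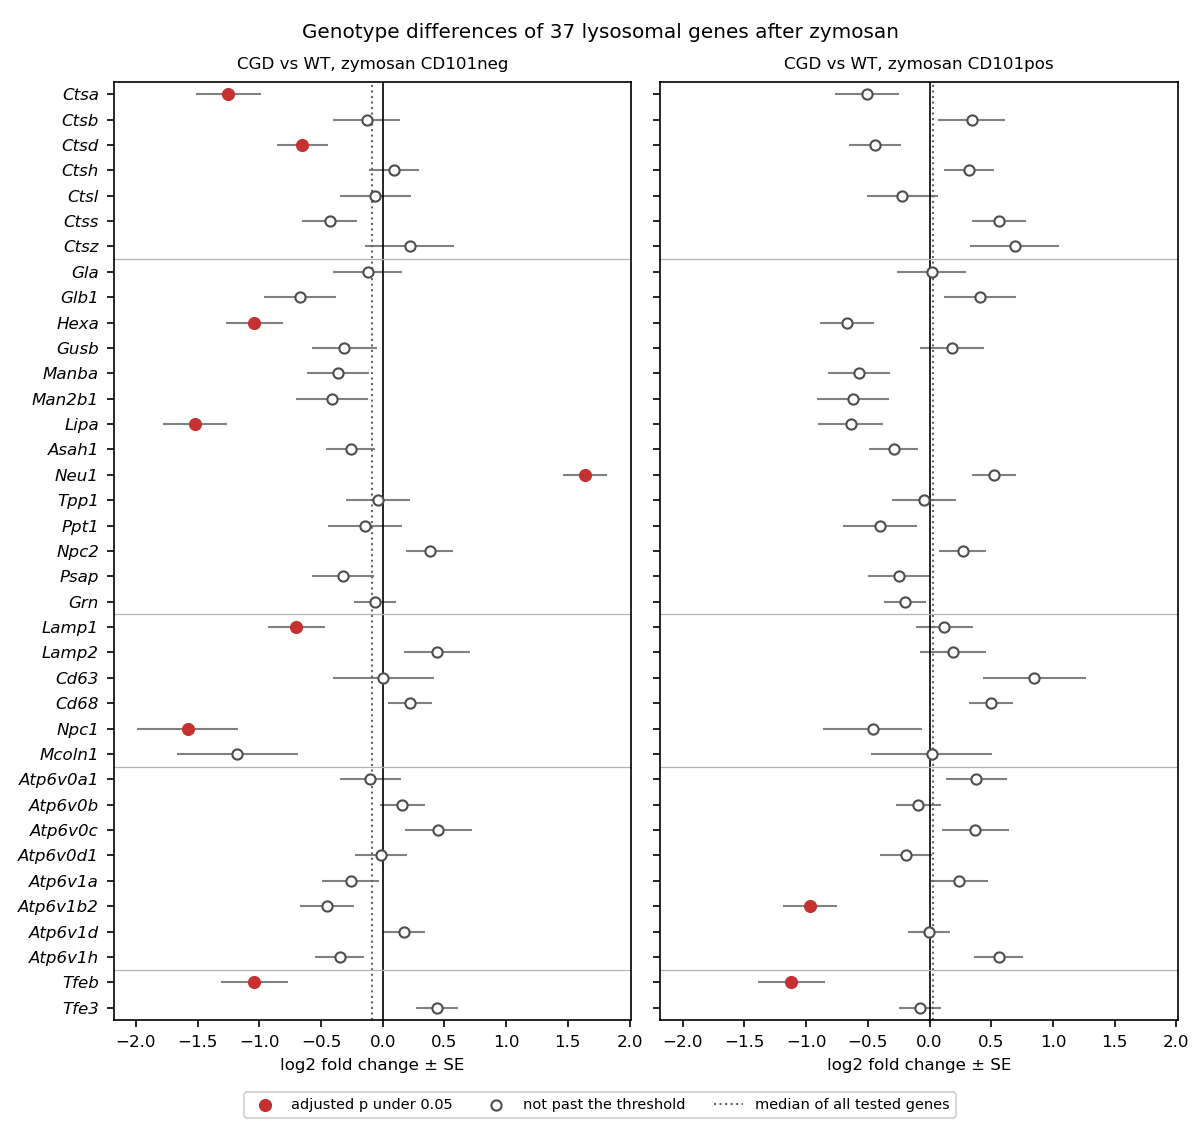
Log2 difference of CGD against WT (x axis, with SE bars) for each of the 37 genes after zymosan, in CD101neg cells (left) and CD101pos cells (right), with red points for an adjusted p under 0.05 and a dotted line at the median of all tested genes. The left panel holds 8 red points, of which Neu1 at 1.64 is the one above 0, and the right panel holds 2, Tfeb and Atp6v1b2.

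The next comparison set CD101neg, labelled immature, against CD101pos, labelled mature, cells of the same genotype after zymosan. In WT mice Npc1 alone of the 37 genes passed, higher in CD101neg cells, against 0.440% of all tested genes (0.410% higher). It gave 81.2, 47.2 and 132 CPM in CD101neg and 25.4, 14.4 and 27.6 CPM in CD101pos libraries, a 3.87-fold difference with no overlap (log2 1.95 ± 0.42, adjusted p = 0.0462). The call was lost without WT CD101pos replicate 1, 2 or 3 or WT CD101neg replicate 1 or 3, when 0 passed, and 11 genes passed without WT CD101neg replicate 2. It was also lost with only the groups compared and with a replicate block over all 18 libraries, when 0 passed, with no low-count filter, when 5 genes other than Npc1 passed, and with scaling by library size alone. Over the alternatives the log2 difference of Npc1 stayed between 1.52 and 2.24.

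No label states which CD101neg and CD101pos libraries belong together. The numbers in the sample titles were taken to pair those of WT mice, because same-numbered libraries deviated together in these data. With that pairing as a block in a fit of the 6 WT libraries, 19 of the 37 genes passed, 15 higher and 4 lower in CD101neg cells, and Npc1 was at 1.87 ± 0.14 on the log2 scale. A fit of the same 6 libraries without the block called 0 of 14796 genes, so these calls rest on the assumed pairing. The paired fit has fewer residual degrees of freedom than the 12 of the main fit. In the paired fit 15.1% of 14796 tested genes passed (6.46% higher and 8.60% lower). Of the 6 membrane and cargo genes 5 rose in it, and Lamp2 did not pass. Cd63, a tetraspanin of late endosomes and azurophil granules, gave 938, 502 and 1494 CPM in CD101neg and 368, 209 and 344 CPM in CD101pos libraries, with ratios of 2.55, 2.4 and 4.34 in pairs 1 to 3 (log2 1.56 ± 0.16). Mcoln1 gave 16.1, 9.99 and 24.2 CPM against 5.81, 4.51 and 6.22 CPM (ratios 2.78, 2.22 and 3.89, log2 1.52 ± 0.17). Lamp1 rose from 43.3, 37.7 and 39.9 CPM to 74.1, 60.3 and 107 CPM (log2 0.94 ± 0.14). For these 3 genes every CD101neg library was above every CD101pos library.

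Of the cathepsins, Ctsb, Ctsd and Ctsz rose and Ctsa fell in the paired fit. Ctsb, a cysteine protease, gave 4066, 2519.7 and 4962 CPM in CD101neg and 1842, 1475 and 1885 CPM in CD101pos libraries (ratios 2.21, 1.71 and 2.63, log2 1.09 ± 0.14). Ctsz, a carboxypeptidase, gave 827, 386 and 872 CPM against 430.1, 183 and 326 CPM, groups that overlapped although each pair rose (log2 1.13 ± 0.13). Of the other soluble proteins, Gla (α-galactosidase), Psap, Tpp1 and Lipa rose, and Ppt1, Asah1 and Man2b1 fell. Gla gave 245, 128 and 269 CPM against 93.8, 77.7 and 114 CPM (log2 1.10 ± 0.14), and Psap gave 2235, 1611 and 2752 CPM against 957, 935 and 1279 CPM (log2 1.02 ± 0.13). The 4 genes that fell did so by 0.54 to 0.89 on the log2 scale. Ppt1, which removes palmitate from proteins and is named here after its values were seen, fell the most of them, from 395, 602 and 545 CPM to 182, 429.6 and 269 CPM, and its groups overlapped. Of its exon bases 3.51% lie opposite Cap1, which the count table holds (mean count 30505), so reads could be shared.

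The pump subunits Atp6v0c, Atp6v1a and Atp6v1h rose in the paired fit. Atp6v0c gave 1225, 687 and 1173 CPM in CD101neg and 718, 458 and 558 CPM in CD101pos libraries, groups that overlapped (log2 0.79 ± 0.13). In the unpaired fit it was at 0.83 ± 0.27. Neither transcription factor passed in either fit. Tfeb was at 63.2, 67.9 and 106 CPM in CD101neg and 55.5, 78.7 and 82.5 CPM in CD101pos libraries (unpaired log2 0.13 ± 0.27), and Tfe3 at 42.7, 45.3 and 59.9 CPM against 36.9, 43.9 and 47.6 CPM (unpaired log2 0.20 ± 0.17). The 80 other lysosome genes had 33 that passed in the paired fit, 25 of them higher, and 1 in the unpaired fit, Naglu, which degrades heparan sulfate (21.2 against 4.38 CPM, log2 2.28 ± 0.47). In the paired fit 4 of 13 monocyte and interstitial macrophage markers rose and 4 of 11 neutrophil markers fell, and 1 alveolar macrophage marker rose and 1 fell. Their part in the subset differences was not tested.

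In CGD mice 8 of the 37 genes passed between the subsets, 5 higher and 3 lower in CD101neg cells, a share of 21.6% against 7.35% of all tested genes (3.27% higher and 4.08% lower). Ctss, a cysteine protease of antigen-presenting cells, gave 225, 155 and 245 CPM in CD101neg and 584, 399.9 and 449 CPM in CD101pos libraries (log2 -1.20 ± 0.22, adjusted p = 0.00457). Ctsa gave 255, 177 and 128 CPM against 552, 439.6 and 385 CPM (log2 -1.30 ± 0.26, adjusted p = 0.00734). Glb1 gave 3.51, 3.28 and 1.57 CPM against 6.17, 5.12 and 6.51 CPM, the lowest levels among the called genes (log2 -1.09 ± 0.29, adjusted p = 0.0314). In GENCODE M21 5.49% of its exon bases also belong to Tmppe on the same strand, which the count table holds (mean count 162), so reads could be shared. For Ctss, Ctsa and Glb1 every CD101neg library was below every CD101pos library.

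The 5 genes that rose had groups that did not overlap either. Neu1 gave 188, 249.7 and 212 CPM in CD101neg and 137, 120.3 and 109 CPM in CD101pos libraries (log2 0.82 ± 0.18, adjusted p = 0.0108). Psap gave 1736, 1698 and 1867 CPM against 1076, 704 and 879 CPM (log2 1.00 ± 0.25, adjusted p = 0.0229). Gla gave 129.6, 223 and 238 CPM against 101, 92.1 and 96.2 CPM (log2 1.03 ± 0.28, adjusted p = 0.0333). Tfe3 was the transcription factor that rose, with 58.2, 71.2 and 71.9 CPM against 40.7, 36.2 and 44.9 CPM (log2 0.73 ± 0.17, adjusted p = 0.0189). Atp6v0c gave 1144, 1503 and 1563 CPM against 795, 753 and 686 CPM (log2 0.91 ± 0.27, adjusted p = 0.0472). Tfeb overlapped between the subsets, at 23.5, 42.7 and 48.9 CPM and 31.1, 27.2 and 41.7 CPM (log2 0.20 ± 0.27, adjusted p = 0.703).

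The calls of Ctsa and Ctss held under every alternative run. The calls of Glb1, Psap, Gla and Atp6v0c were lost without CGD replicate 2 or 3 of either subset, those of Gla, Atp6v0c and Tfe3 also without CD101pos replicate 1, that of Tfe3 without CD101pos replicate 2 or CD101neg replicate 2 or 3, and that of Neu1 without CD101pos replicate 2 or 3 or CD101neg replicate 2. The count was 3 without CGD CD101pos replicate 3 or CD101neg replicate 3, 2 without CD101pos replicate 2 or CD101neg replicate 2, 5 without CD101pos replicate 1 and 11 without CD101neg replicate 1. With scaling by library size alone, 7 genes passed and 0 of them were higher, since all 5 higher calls were lost; over all genes 7.51% passed (0.495% higher). Of 80 other lysosome genes 13 passed, 7 higher and 6 lower. Scpep1 (4.87 against 17.4 CPM, log2 -1.83 ± 0.27), the phospholipase gene Pla2g15 (34.6 against 68.9 CPM, log2 -0.99 ± 0.20) and Gm2a, the activator of ganglioside cleavage (595 against 1358 CPM, log2 -1.19 ± 0.27), fell. Atp6v1e1 (853 against 477 CPM, log2 0.84 ± 0.18), Atp6ap2 (517 against 265 CPM, log2 0.97 ± 0.26), M6pr (343 against 151 CPM, log2 1.18 ± 0.30) and Cln3 (185 against 97.8 CPM, log2 0.92 ± 0.23) rose. Of the alveolar macrophage markers 11 of 13 fell (239.7 to 324 CPM against 434 to 835 CPM), and of the monocyte and interstitial macrophage markers 8 of 13 fell. Epithelial markers summed to 315 to 578 CPM in CD101neg and 992 to 1223 CPM in CD101pos libraries, without overlap, and 1 of 5, Ager, fell (log2 -1.9 ± 0.49). The part of these markers in the differences of the 37 genes was not tested.

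**Figure D4:**
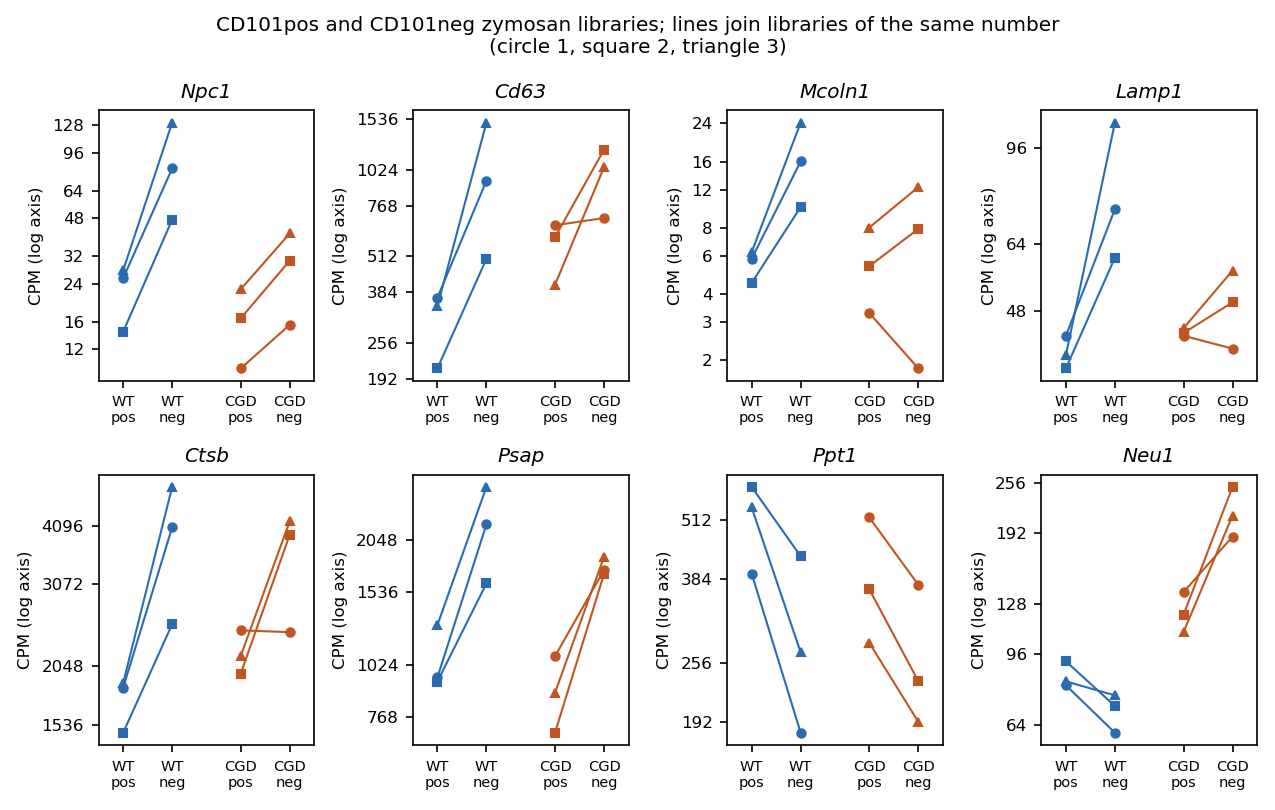
CPM (log axis) of 8 genes in CD101pos and CD101neg zymosan libraries of WT (blue, left of each panel) and CGD (orange, right) mice, with lines joining libraries of the same title number (circles 1, squares 2, triangles 3). All 3 WT lines rise for Npc1, Cd63, Mcoln1, Lamp1, Ctsb and Psap and fall for Ppt1 and Neu1, while all 3 CGD lines rise for Npc1, Cd63, Psap and Neu1.

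Whether the subset difference itself differed between genotypes was tested as an interaction, the CGD difference minus the WT difference. Of the 37 genes Neu1 passed (log2 1.11 ± 0.25, adjusted p = 0.0427), against 0.851% of all tested genes (0.181% higher). Its log2 difference between subsets was 0.82 ± 0.18 in CGD and -0.29 ± 0.18 (adjusted p = 0.632) in WT cells, where it gave 61.4, 71.5 and 76 CPM in CD101neg and 80.5, 92.3 and 82.3 CPM in CD101pos libraries. The libraries of the subsets did not overlap in either genotype, so every way of pairing them gives the same direction. The call was lost without CGD CD101pos replicate 2 or 3, CGD CD101neg replicate 2 or 3, WT CD101pos replicate 2 or 3, or WT CD101neg replicate 1 or 3, when 0 genes passed, and 2 genes passed without CGD CD101neg replicate 1. It was also lost with no low-count filter, with only the groups compared and with a replicate block over all 18 libraries, when 0 of the 37 passed in each, and with scaling by library size alone. Over the alternatives the value of Neu1 ran from 0.69 to 1.18. Npc1, called in WT and not in CGD cells, had an interaction of -1.12 ± 0.57 (adjusted p = 0.382). For Tfeb the interaction was 0.075 ± 0.38, for Tfe3 0.52 ± 0.24 (adjusted p = 0.342) and for Atp6v0c 0.083 ± 0.38. Outside the 37, 2 other lysosome genes passed, Scpep1 (-2.48 ± 0.37) and Lgmn (-2.18 ± 0.44), and among the markers 4 of 13 for alveolar macrophages and 7 of 13 for monocytes and interstitial macrophages had a passing interaction, all below 0.

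Zymosan CD101pos cells were then set against naive CD101pos cells. In WT mice 6 of the 37 genes rose and none fell, a share of 16.2% against 3.79% of all tested genes (2.92% higher). Of 7 cathepsins 3 rose, of 8 pump subunits 2, and of the 14 other soluble proteins Grn alone. Ctsb gave 1842, 1475 and 1885 CPM after zymosan and 700.4, 785 and 787 CPM in naive libraries (log2 1.19 ± 0.27, adjusted p = 0.0172). Ctsd gave 3257, 2639 and 2661 CPM against 1704, 1611 and 1352 CPM (log2 0.87 ± 0.21, adjusted p = 0.0219). Ctsl, a cysteine endopeptidase, gave 118, 208 and 153 CPM against 77.4, 76.3 and 60.2 CPM (log2 1.16 ± 0.29, adjusted p = 0.0301). Of its exon bases 26.8% lie opposite the antisense gene Gm47123, which the count table does not hold. Of those of Ctsb 12.8% lie opposite Fdft1, which it holds. Every zymosan library was above every naive library for Ctsb, Ctsd and Ctsl.

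Grn, the progranulin gene, gave 314, 312 and 268 CPM after zymosan and 176, 165 and 129.8 CPM in naive WT libraries (log2 0.93 ± 0.17, adjusted p = 0.00315). Atp6v0a1, one of the alternative a subunits that place the pump in different membranes, gave 90.3, 165 and 151 CPM against 41.9, 45 and 47.7 CPM, a 3.02-fold difference (log2 1.59 ± 0.26, adjusted p = 0.00142). Atp6v0c gave 718, 458 and 558 CPM against 306, 298 and 247 CPM (log2 1.03 ± 0.27, adjusted p = 0.0393). These groups did not overlap either. Tfeb, with 55.5, 78.7 and 82.5 CPM against 82.5, 88 and 70.3 CPM, and Tfe3, with 36.9, 43.9 and 47.6 CPM against 29.8, 36.4 and 37.3 CPM, overlapped (log2 -0.15 ± 0.27 and 0.31 ± 0.17).

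The calls of Atp6v0a1 and Grn held under every alternative run. Without any one of the 3 naive WT libraries the other 4 calls were lost and the count was 2. It was 3 without WT zymosan replicate 3 (Ctsb, Ctsl and Atp6v0c lost), 4 without replicate 1 (Ctsd and Atp6v0c lost) and 5 without replicate 2 (Ctsl lost). Of 80 other lysosome genes 13 passed, 12 of them higher. Among them Pla2g15 (70.8 against 15.3 CPM, log2 2.21 ± 0.21), Ctsc (144 against 44.9 CPM, log2 1.68 ± 0.20) and Ctsk (17.0 against 1.3 CPM, log2 3.73 ± 0.56) rose. Of the alveolar macrophage markers 8 of 13 rose (213 to 469 CPM against 127 to 134 CPM), and 6 of 6 B cell markers fell (149 to 175 CPM against 429 to 454 CPM). Of the monocyte and interstitial macrophage markers 4 of 13 rose, and the 5 epithelial markers, none of which passed, summed to 393 to 1365 CPM against 1690 to 1886 CPM. The part of these markers in the rise of the 37 genes was not tested.

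In CGD mice the same comparison called 3 of the 37 genes, 2 higher and 1 lower, a share of 8.11% against 12.8% of all tested genes (7.13% higher and 5.71% lower). Atp6v0a1 gave 167, 186 and 174 CPM after zymosan and 45.3, 48.9 and 66.2 CPM in naive libraries, a 3.29-fold difference with a wide gap between the groups (log2 1.72 ± 0.26, adjusted p = 0.000212). Tfeb fell, from 97, 77.9 and 65.3 CPM to 31.1, 27.2 and 41.7 CPM, also without overlap (log2 -1.27 ± 0.27, adjusted p = 0.00417), and both calls held under every alternative run. Atp6v0c gave 795, 753 and 686 CPM against 293, 612 and 347 CPM (log2 0.84 ± 0.27, adjusted p = 0.0485). CGD naive replicate 2, at 612 CPM, lay close to the zymosan libraries. The call of Atp6v0c was lost without CGD zymosan replicate 1, 2 or 3 or CGD naive replicate 1 or 3, with log2 values of 0.64 to 0.89, and without CGD naive replicate 2 the count was 6, 5 of them higher. With scaling by library size alone 6 genes passed and 1 was higher, against 16.6% of all tested genes (4.39% higher).

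Tfe3 was at 40.7, 36.2 and 44.9 CPM after zymosan and at 34.2, 37 and 37 CPM in naive CGD libraries, which overlapped (log2 0.17 ± 0.17). Of 80 other lysosome genes 18 passed in CGD cells, 13 higher and 5 lower. Pla2g15 (68.9 against 19.4 CPM, log2 1.83 ± 0.20), Ctsc (203 against 64.5 CPM, log2 1.66 ± 0.20) and Slc11a1 (1207 against 569.7 CPM, log2 1.08 ± 0.16) rose, and Hgsnat, which acetylates heparan sulfate for degradation, fell (28.1 against 72.0 CPM, log2 -1.36 ± 0.37). Of the alveolar macrophage markers 9 of 13 rose (434 to 835 CPM against 126 to 184 CPM) and 6 of 6 B cell markers fell (42.8 to 63.2 CPM against 299 to 436 CPM). Of the monocyte and interstitial macrophage markers 6 of 13 rose and 2 fell, and 1 of 5 epithelial markers, Ager, rose (summed level of the 5, 992 to 1223 CPM against 601 to 1719.8 CPM). Their part was not tested.

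**Figure D5:**
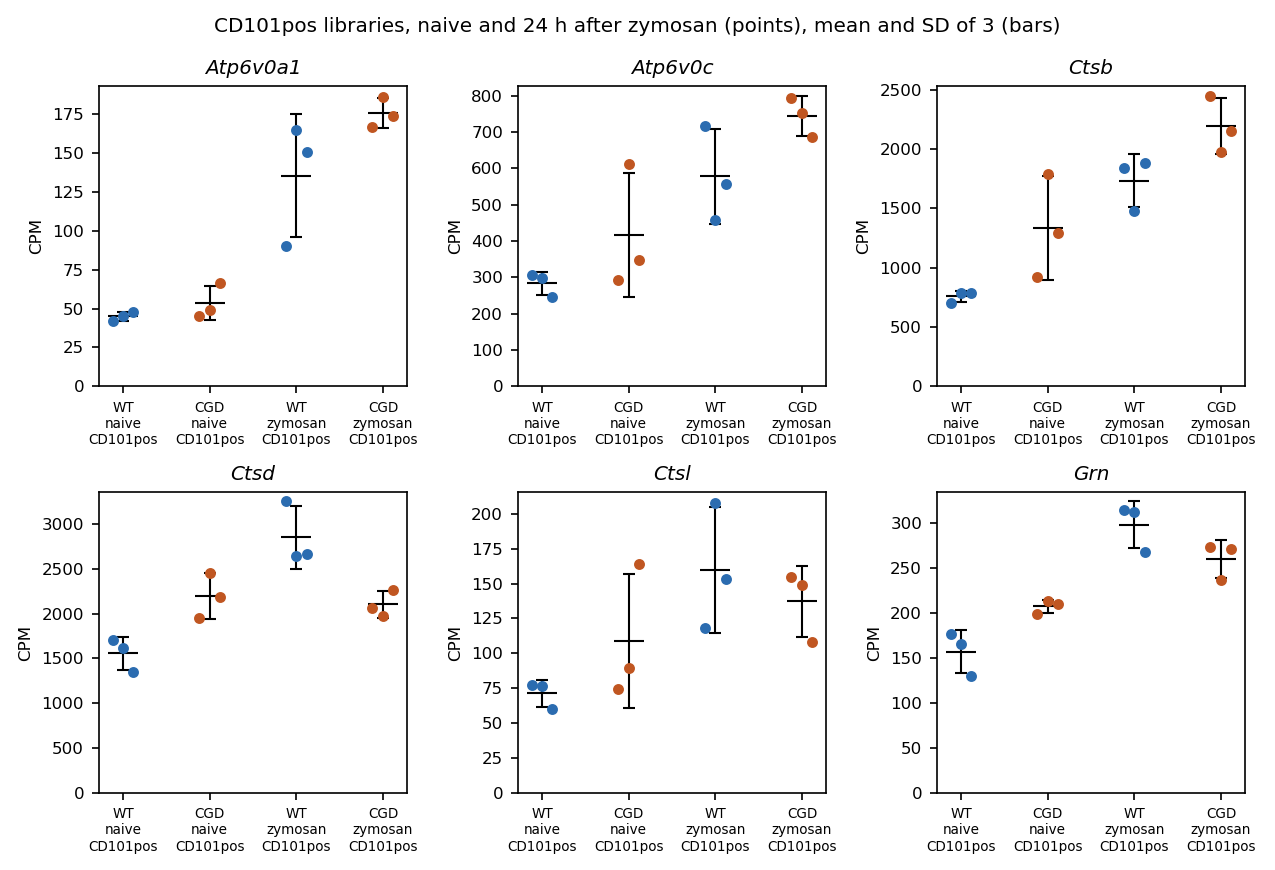
CPM of Atp6v0a1, Atp6v0c, Ctsb, Ctsd, Ctsl and Grn in CD101pos libraries of naive and zymosan-treated WT (blue) and CGD (orange) mice (points), with the mean and SD of 3 libraries (black bars) and axes that start at 0. All 6 genes are higher in each WT zymosan library than in each WT naive library, and so are Atp6v0a1, Atp6v0c, Ctsb and Grn in CGD mice, of which Ctsb and Grn did not pass the test there.

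The interaction of genotype with zymosan, the CGD difference minus the WT difference, passed for none of the 37 genes by edgeR's quasi-likelihood test, against 0.320% of all tested genes. At an unadjusted p under 0.05 there were 5 of the 37, against 10.7% of all tested genes. DESeq2 called 2 of the 37, Atp6v1b2 and Ctsd, neither of them higher, and 1.53% of all genes (0.682% higher). These had the lowest p, with log2 values of -1.10 ± 0.31 (adjusted p = 0.172) and -0.94 ± 0.29 (adjusted p = 0.229). Atp6v1b2 went from 149, 167 and 151 CPM to 153, 249 and 228 CPM in WT and from 157, 181 and 170.4 CPM to 101, 104 and 116 CPM in CGD mice. Ctsd went from 1948, 2455 and 2186 CPM to 2066, 1972 and 2267 CPM in CGD mice. For Tfeb, which passed in CGD and not in WT mice, the interaction was -1.11 ± 0.38 (adjusted p = 0.283), so a difference between the genotypes was not shown by this test. Tfe3 and Atp6v0c had interactions of -0.14 ± 0.24 and -0.19 ± 0.38. The pairwise comparisons share libraries, since each zymosan CD101pos group enters 3 of them.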

How the data were processed

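The authors deposited a table of unnormalised gene counts for 18 libraries, which were made from total RNA with a SMARTer kit, per the labels. STAR 2.5.1a, Subread and featureCounts 1.4.6-p5 are named in the submitters' processing notes. No genome build, annotation release or strand setting is given in the sources used here. Reads of overlapping genes therefore cannot be told apart. Of 40757 lines, 276 were second copies of a gene ID (same counts) and were dropped.

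All 18 libraries (33.7 to 67.9 M counts) entered 1 fit in edgeR 4.0.16 (R 4.3.3; TMM, filterByExpr by group, robust quasi-likelihood test, 12 residual degrees of freedom). A gene passed at a Benjamini-Hochberg adjusted p under 0.05 over the 16575 genes tested, and the SE is the size of the log2 difference over the square root of F. The numbers in the titles were taken to pair the WT zymosan subsets, because deviations from the group means of same-numbered libraries correlated at 0.44, 0.375 and 0.278 over genes. Alternatives were RLE factors, DESeq2 1.42.0, no filter, only the groups compared, replicate blocks, each library left out and, chosen after seeing the data, scaling by library size only. The replicate block over all 18 libraries also joined same-numbered libraries of different genotypes and treatments, which no label links. Tested on simulated data of 16575 genes, the CD101neg genotype comparison found 23% of 2-fold and 89% of 4-fold changes, and the interaction with subset 2% and 65%, with 8.22% of its calls false. The paired WT fit, on 14796 genes, recovered 82% and 94%, with 6.38% of calls false. Fewer genes were changed in simulation than the 2139 that passed in the CD101neg genotype comparison and the 2229 in the paired WT fit. The changed genes all lay above a set mean level, so these rates need not hold for the data.

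The 37 genes, the lists of other lysosome genes and the markers were chosen with earlier results of these data known. Values in every library are given for at most 8 passing genes per comparison, lowest p first (2 where none passed), for Tfeb, Tfe3 and the most abundant pump subunit, Atp6v0c; other genes are named only from the lists, at most 4 per list and comparison. Some genes of the lists are counted but not reported here by name. Exon lengths and overlaps are from GENCODE M21.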

Additional observations from a re-analysis of the deposited data

Results flagged for a closer look

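Neu1, the lysosomal sialidase, passed the test of the interaction of genotype with subset in the main fit. The log2 difference between CD101neg and CD101pos cells after zymosan was 1.11 larger in CGD than in WT mice by the interaction term. Its adjusted p was 0.0427 (edgeR quasi-likelihood test), and 0.00108 to 0.157 over the alternatives, some of which lost the call. CD101neg libraries lay above CD101pos libraries in CGD and below them in WT mice, without overlap, though the WT difference did not pass.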

How the results depend on the processing

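Of the 29 called values of the genes described, none changed sign under any alternative, and 9 kept their call under all of them (Atp6v0a1 in both zymosan comparisons; Ctsa and Ctss between CGD subsets; Grn in WT after zymosan; Hexa, Lipa and Neu1 in CGD against WT CD101neg cells; Tfeb in CGD after zymosan). With only the groups compared in the fit, the counts of passing genes were 3 in CGD against WT CD101neg cells, 1 in CD101pos cells, 0 between WT subsets and 0 for the interaction with subset. Over all genes tested in those fits they were 1062 of 14563, 572 of 14832, 0 of 14796 and 62 of 15791. DESeq2 called 8 between WT subsets, 7 in CGD after zymosan and 2 for the interaction with zymosan. Of all 16571 genes it called 292, 2827 and 253 in these comparisons. Without the low-count filter 5 passed between WT subsets, 5 in CGD after zymosan and 0 for the interaction with subset. Of all 28513 genes 140, 1970 and 327 passed there. Library-size scaling gave 20 in CGD against WT CD101neg cells, 3 in WT and 6 in CGD after zymosan. Among all 16575 genes it gave 3985, 881 and 2748. A replicate block over all 18 libraries gave 0 between WT subsets and 0 for the interaction with subset, and pairing gave 19 between WT subsets. Over all genes the block called 50 and 134 of 16575, and the WT pairing 2229 of 14796. Between CGD subsets same-numbered libraries correlated at 0.201, 0.0129 and 0.223, each library best with its own number as a hint from the data, and pairing gave 21, 14 of them higher, against 20.8% of all genes in that fit (10.5% higher); the block changed no count beyond these by over 1.5 times. Leaving out 1 library in turn gave 4 to 8 in CGD against WT CD101neg cells, 0 to 2 in CD101pos cells, 0 to 11 between WT and 2 to 11 between CGD subsets, 2 to 5 in WT and 2 to 6 in CGD after zymosan, and 0 to 2 for the interaction with subset. Those refits tested 17105 to 17273 genes. Over all of them the counts, in the same order, were 1164 to 1938, 320 to 1125, 3 to 400 and 321 to 1185. For the last 3 they were 263 to 560, 1170 to 1891 and 43 to 497. Values that had not passed changed sign, and not all of them were near 0 in the main fit. With library-size scaling, Atp6v0c was at -0.058 and Tfe3 at -0.03 in CGD against WT CD101neg cells, Tfe3 at -0.042 in naive cells, -0.015 in WT and -0.068 in CGD after zymosan, Tfeb at -0.121 between CGD subsets, and Tfeb at -0.392 and Atp6v0c at -0.344 in the interaction with subset. Tfeb in naive cells was at 0.006 with RLE factors or DESeq2, 0.027 without the filter and 0.01 with the block. Leaving out 1 library at a time, Tfeb ran from -0.163 to 0.129 in naive cells, -0.14 to 0.264 between WT and -0.011 to 0.407 between CGD subsets, -0.257 to 0.009 in WT after zymosan and -0.138 to 0.339 in the interaction with subset. Tfe3 ran from -0.172 to 0.008 in CGD against WT CD101pos cells and -0.029 to 0.123 in naive cells. Atp6v0c ran from -0.14 to 0.225 in the interaction with subset and -0.391 to 0.19 in that with zymosan. The cause was not tested.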
